A study of Mus musculus with 30 samples.

Results

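Microglia of naive mice labelled as Atg7 knockout (KO), with Cre driven from the Cx3cr1 locus, were compared with microglia of naive wild-type (WT) mice. These 8 libraries, 4 of each genotype, were chosen by sample title from 30 libraries. Microglia are the brain's own macrophages. KO mice carried Atg7fl/fl with Cx3cr1CreERT and WT mice Atg7wt/wt with Cx3cr1CreERT2, on C57BL/6, and both groups were labelled young. Both genotypes received 3 doses of 4 mg tamoxifen, 48 h apart, which activates the Cre in cells that express Cx3cr1. The labels give the Cre allele for both groups but not the number of copies, so the copy number of the Cre allele and the Atg7 genotype cannot be told apart here. Cells were sorted as live, CD11b+, CD45 intermediate and Ly6G-, and/or as eYFP+, and lysates were stated to be pooled in equal parts from females and males. Used for reference were 4 libraries of naive old mice, labelled wild type for Atg7 with no Cre status given. So were 4 KO and 3 WT libraries of day 21, and 4 of each of day 35, of EAE (experimental autoimmune encephalomyelitis), a mouse model of multiple sclerosis. The labels do not say whether replicates came from separate mice or sorts, so the spread behind the p-values may be technical. In the test of genes this spread was estimated over 8 groups and all 30 libraries, not from the 8 compared libraries alone. That fit also held 3 libraries of old mice at day 35 of EAE, labelled wild type for Atg7.

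Atg7 is the E1-like enzyme that activates Atg12 and the LC3 family, so that LC3 can be attached to lipid and autophagosomes can form around cell material that is then degraded in lysosomes. Microglia use this machinery, and the related attachment of LC3 to phagosomes, in the breakdown of what they take up. Cx3cr1, the locus that carries the Cre, encodes the receptor of the neuronal chemokine fractalkine and is among the most abundant microglial transcripts. Levels below are CPM (each gene's share of its library, scaled by TMM factors), and differences are log2 fold changes (log2FC) of KO minus WT with their standard error (SE). A gene was called when its adjusted p in edgeR's quasi-likelihood test was under 0.05 over all 13880 genes tested.

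The promoters of 4 called genes are shown because the results turn on these genes: Cx3cr1 had the lowest log2FC of all genes, Pianp the highest of a called protein-coding gene, and Cdkn1a and Htra3 were the pair called under each alternative analysis run. Each is the 250 bases before a RefSeq transcription start (GRCm38.p6), written 5′ to 3′ on the gene's strand, with a CCAAT box (CCAAT, or ATTGG on the other strand) in capitals. Cdkn1a has 2 promoter entries and Pianp 3, of which only the first listed is printed. Cx3cr1 is read from chr9:120068297-120068546 on the minus strand, Cdkn1a from chr17:29090729-29090978 on the plus strand, Htra3 from chr5:35679781-35680030 on the minus strand and Pianp from chr6:124996470-124996719 on the plus strand.
Cx3cr1: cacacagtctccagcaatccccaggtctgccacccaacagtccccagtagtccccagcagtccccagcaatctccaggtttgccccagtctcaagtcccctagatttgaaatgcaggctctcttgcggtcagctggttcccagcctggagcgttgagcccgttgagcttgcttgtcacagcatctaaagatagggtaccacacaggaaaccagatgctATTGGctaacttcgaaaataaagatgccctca
Cdkn1a: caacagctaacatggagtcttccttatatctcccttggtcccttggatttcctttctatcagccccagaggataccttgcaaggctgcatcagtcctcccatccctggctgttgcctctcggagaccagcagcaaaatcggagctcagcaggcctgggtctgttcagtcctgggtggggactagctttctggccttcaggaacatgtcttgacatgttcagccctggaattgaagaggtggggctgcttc
Htra3: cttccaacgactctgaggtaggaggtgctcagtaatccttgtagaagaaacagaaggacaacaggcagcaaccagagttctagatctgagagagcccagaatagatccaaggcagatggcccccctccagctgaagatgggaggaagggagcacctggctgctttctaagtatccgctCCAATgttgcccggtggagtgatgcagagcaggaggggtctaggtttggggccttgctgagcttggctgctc
Pianp: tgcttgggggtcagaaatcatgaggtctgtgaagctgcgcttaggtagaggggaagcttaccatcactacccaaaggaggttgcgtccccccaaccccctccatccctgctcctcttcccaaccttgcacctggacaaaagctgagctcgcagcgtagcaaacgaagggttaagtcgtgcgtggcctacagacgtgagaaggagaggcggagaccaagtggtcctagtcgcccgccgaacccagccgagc

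GC content was 53.6% for Cx3cr1, 54% for Cdkn1a, 54.8% for Htra3 and 58.8% for Pianp. Of the 40 called genes, 31 had a promoter entry, taken as the first entry listed and read from 250 bases before to 50 bases after the start on both strands. The CCAAT box was in 12 of these 31 (38.7%), the same share as in the 9916 tested genes with an entry (38.7%). The E-box palindrome CACGTG, which MiT/TFE factors of lysosomal and autophagy genes can bind, was in 3 of 31 (9.68%) against 10.2%. TGACNNNGC, the core of the antioxidant response element bound by NRF2, was in 3 of 31 (9.68%) against 14.8%, and TATAAA in 4 of 31 (12.9%) against 7.03%. GAGGAAGT, a site form of the myeloid factor PU.1, was in 1 of 31 (3.23%) against 3.51%. Beyond the CCAAT boxes of Cx3cr1 and Htra3, none of these motifs was in the 4 stretches printed. Sites of other factors were not sought.

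Total counts in the 8 libraries ran from 4712803 to 9893590, RNA integrity numbers from 8.75 to 10, and 18 quality measures and marker sums were compared by a two-sided exact permutation test. With 4 libraries per group the smallest possible raw p is 0.0286, so that a single separated measure adjusts to 0.514 and could not pass. The endothelial sum was at that smallest p, with 55.8 ± 1.37 CPM in KO against 75 ± 7.12 in WT and no overlap (SD, n = 4 each, exact permutation test). The microglial markers were present in each library, their 8 genes summing to between 22311 and 23532 CPM in KO against between 17901 and 25204 in WT. A pair of KO libraries went against the stated equal pool of the sexes. KO 1 had 92.2 CPM of Xist, which is expressed from the inactive X of females, and 175 of summed Y-linked genes, while KO 3 had 1426 and 14.2. The other 6 naive libraries lay between 571 and 1138 for Xist and between 48.2 and 119 for the Y-linked sum. The count columns of KO 1 and KO 3 have 1 number in their names, and those of these 6 libraries have 2. Whether this reflects the pooling was not tested. The 14 neutrophil markers summed to 3147, 3026, 2878 and 640 CPM in KO 1 to 4 and to 2059, 8179, 17222 and 9616 in WT 1 to 4, so the groups overlapped through WT 1 (exact permutation p = 0.114). None of the 14 was called: S100a9, a neutrophil granule protein, had a log2FC of -2.58 ± 1.15 (adjusted p = 0.501) and S100a8, its partner, -2.49 ± 1.12 (adjusted p = 0.506). WT 3 stood apart with the highest neutrophil sum, the lowest microglial sum and 6.73% of counts from mitochondrial genes, against 2.14% to 4.89% in the others. In sorted bulk RNA, fewer cells of a type and less RNA per cell cannot be told apart.

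**Figure D1:**
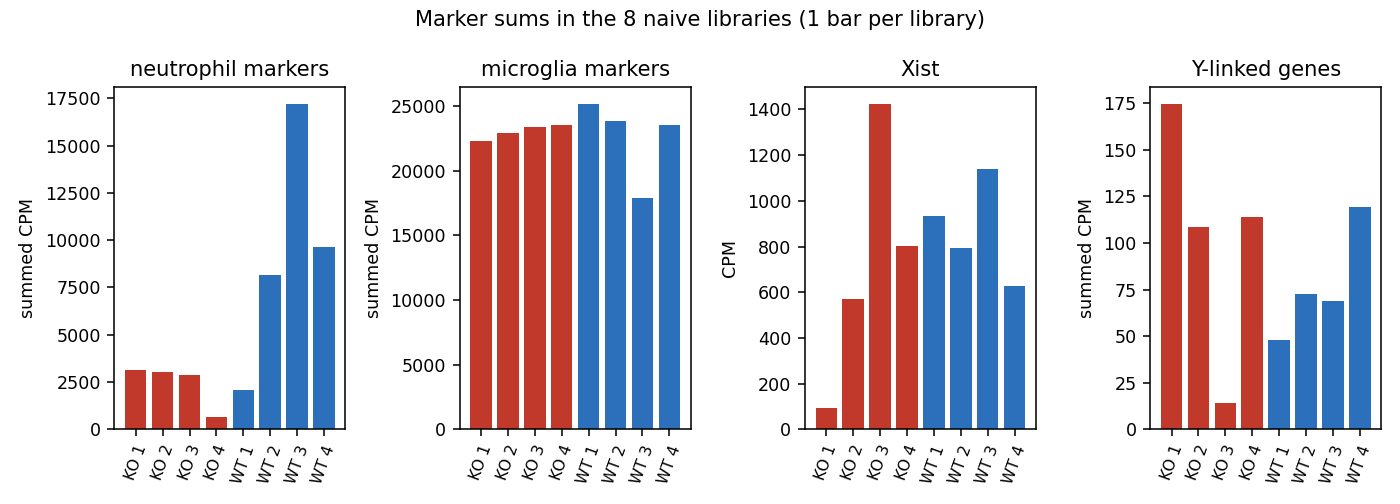
Summed CPM of neutrophil markers, microglial markers and Y-linked genes, and CPM of Xist, with 1 bar for each of the 4 naive KO (red) and 4 naive WT (blue) libraries. WT 3 has the highest neutrophil sum (17222) and the lowest microglial sum (17901), and KO 1 and KO 3 lie at opposite ends of the Xist and Y-linked scales.

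In naive mice 40 of the 13880 genes (0.288%) were called, 33 higher (0.238%) and 7 lower (0.0504%) in KO. Of these 40, 37 are protein coding, and 20 had a log2FC of at least 1 in size. For 36 of them every KO library lay on one side of every WT library, while over all genes this held for 796 (5.73%), 423 of them higher (3.05%) and 373 lower (2.69%). At an unadjusted p under 0.05 there were 1293 genes, and the median log2FC over all genes was -0.02. The count leaned on single libraries. Without KO 1, KO 2 or KO 3 it was 21, 12 or 11, and without KO 4 it was 69. Without WT 1, WT 2, WT 3 or WT 4 it was 34, 17, 54 or 14. With KO 1 and KO 3 both left out, which leaves 2 KO libraries, 2 genes were called, Htra3 and Cdkn1a. With each of the 8 libraries left out in turn, 11 of the 40 were called every time, among them Dlg5, Htra3, Cdkn1a, Chst1, Sdc3, Col6a3, Spns2, Mmp2 and Tgm2 higher and Cx3cr1 lower. Each of the other 29 was lost without at least 1 library. The fit to the 8 libraries alone called 18 of 12041 genes, 13 of them among the 40. In that fit Dlg5 (adjusted p = 0.175), Chst1 (0.086), Sdc3 (0.0974), Col6a3 (0.0918), Mmp2 (0.057) and Cx3cr1 (0.0838) were not called. With KO 1 and KO 3 both left out, 8 of these 10 named genes kept their sign with adjusted p from 0.0542 (Chst1) to 0.181 (Col6a3). When the neutrophil sum was a covariate, 46 genes were called, and 20 of them were among the 40, these 10 included. When Xist was a covariate, 36 genes were called, and 35 of them were among the 40. Of the 40, 15 share exon bases with another gene, 13 of them with a gene on the opposite strand (Adgrl2, Ajm1, Cdkn1a, Cx3cr1, Hspa12a, Il12rb2, Ildr2, Mid1, Naalad2, Sdc3, Slc11a2, Spns2 and Tgm2) and Dlg5 and Tmppe with one on the same strand. Since the strand setting of the counting is not given, such reads may belong to either gene. The log2FC of none of the 40 changed sign in any of the 20 alternatives.

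**Figure D2:**
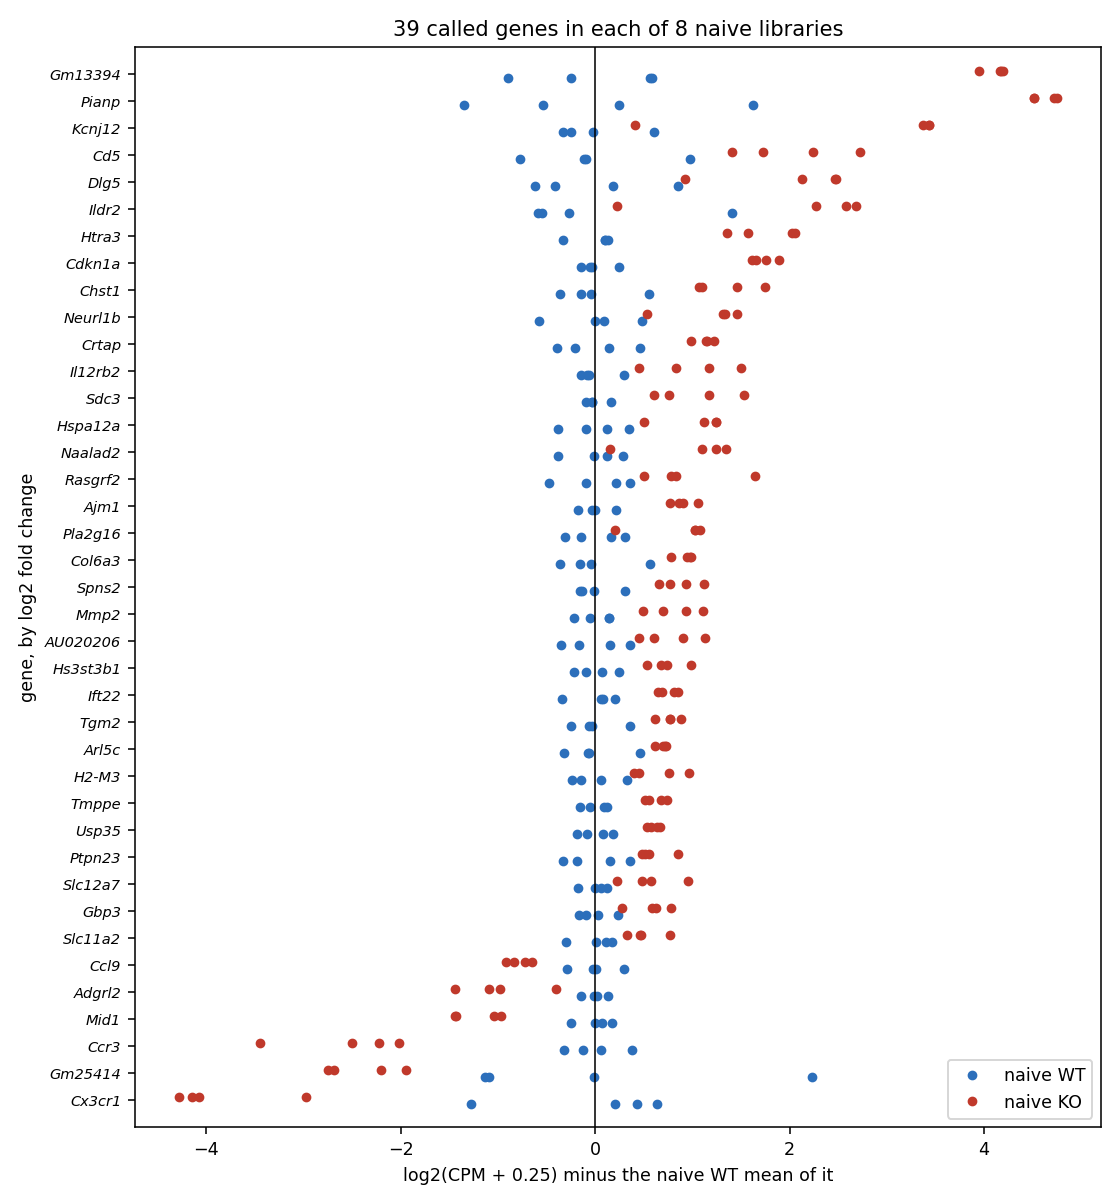
Each of 39 of the 40 called genes in each naive library, as log2(CPM + 0.25) minus the mean of that value over the 4 WT libraries, with KO libraries in red and WT libraries in blue, and genes ordered by log2FC. The groups are apart for 35 genes and overlap for Kcnj12, Ildr2, Naalad2 and Pla2g16, in each of which KO 4 lies near the WT libraries.

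Atg7 itself was not called. It lay at 16.8, 20.7, 31.8 and 11.4 CPM in KO 1 to 4 and at 26.6, 27, 40.1 and 32.8 in WT 1 to 4. Only KO 3 overlapped the WT range, and the log2FC was -0.65 ± 0.30 (edgeR adjusted p = 0.516). At day 21 Atg7 was at 32.8 ± 2.73 CPM (SD, n = 4) in KO and 23.2 ± 3.02 (SD, n = 3) in WT, a log2FC of 0.50 ± 0.325 (edgeR adjusted p = 0.303). At day 35 it was at 32.5 ± 1.54 in KO and 22.5 ± 1.41 in WT (SD, n = 4 each), a log2FC of 0.53 ± 0.299 (edgeR adjusted p = 0.338). On both days every KO library was above every WT library. The counts cover the whole gene (chr6:114643097-114860614, GRCm38) and do not separate a deleted exon, so they do not check the recombination.

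Cx3cr1, the fractalkine receptor, fell most. Its level was 117.8, 129.5, 136.4 and 291.5 CPM in KO 1 to 4 and 3585, 2652, 948 and 3109 in WT 1 to 4. The lowest WT library, WT 3, was still above the highest KO library, KO 4. The log2FC was -3.93 ± 0.491 (edgeR adjusted p = 0.000312), and between -4.33 and -3.73 with each library left out in turn. In the fit to the 8 libraries alone the log2FC was the same, -3.93, with an adjusted p of 0.0838, and with KO 1 and KO 3 left out it was -3.60 (adjusted p = 0.0552). Naive old mice had 3916 to 4554 CPM. At day 21 the KO mean was 305 ± 193 CPM (SD, n = 4) and the WT mean 707 ± 251 (SD, n = 3), and at day 35 they were 953 ± 389 and 805 ± 280 (SD, n = 4 each). The difference was not called on either day (edgeR adjusted p = 0.0728 and 0.80). The gene spans chr9:119901616-120069879 in GENCODE, and 78 of its 4505 exon bases overlap another gene, Gm33858, on the opposite strand.

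Of 28 homeostatic microglial genes tested, Cx3cr1 alone was called, 16 had a positive and 12 a negative log2FC, and the median was 0.01. With the neutrophil sum as a covariate 3 of the 28 were called lower and the median was -0.28, beside 46 calls among all 13880 genes. Without KO 4 2 were called lower, beside 69 calls among all 13861 genes then tested. P2ry12, a nucleotide receptor of resting microglia, was at 2525 to 2872 CPM in KO against 2033 to 3205 in WT, and Tmem119, a microglial surface marker, at 1687 to 2019 and 1493 to 1946. The lowest p values after Cx3cr1 belonged to Gpr165, an orphan receptor (log2FC -1.59 ± 0.438, edgeR adjusted p = 0.185), and Fcrls, an Fc receptor-like microglial protein (-0.46 ± 0.181, edgeR adjusted p = 0.452). Both had their lowest WT value in WT 3, which put it inside the KO range for Gpr165 and below it for Fcrls.

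Cdkn1a, which encodes the p21 inhibitor of cyclin-dependent kinases and is a main target of p53, was higher in KO. Its level was 30, 35.3, 32.3 and 29.2 CPM in KO 1 to 4 and 9.12, 8.44, 11.1 and 8.98 in WT 1 to 4, with no overlap and little spread in either group. The log2FC was 1.75 ± 0.244 (edgeR adjusted p = 0.000373), and with KO 1 and KO 3 left out it was 1.80 (adjusted p = 0.00574). Of 20 p53 targets tested, Cdkn1a alone was called, 10 had a positive log2FC and the median was 0. With library totals only, with DESeq2 or without KO 4, 2 of the 20 were called higher, beside 43, 78 and 69 calls over all genes. Zmat3, an RNA-binding p53 target, was at 16.9, 20.8, 25.6 and 14.5 CPM in KO 1 to 4 against 12.1, 13.6, 11.4 and 12.7 in WT, which did not overlap (log2FC 0.65 ± 0.155, edgeR adjusted p = 0.0728). Of 6 CDK inhibitors tested Cdkn1a was again the only call. With the neutrophil covariate or without KO 4, 2 of the 6 were called higher, beside 46 and 69 calls over all genes. Cdkn2a, the p16 and p19Arf gene, was low, at 0.955, 1.45, 2.83 and 0.44 CPM in KO against at most 0.299 in WT (log2FC 3.03 ± 0.725, edgeR adjusted p = 0.0749). None of 29 cell cycle genes was called, with a median log2FC of -0.49 that turned to 0.44 when the neutrophil sum was a covariate. Rrm2, the ribonucleotide reductase subunit of dividing cells, was at most 3.77 CPM in KO against reached 26.2 in WT 3 (log2FC -2.02 ± 0.866, edgeR adjusted p = 0.486).

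**Figure D3:**
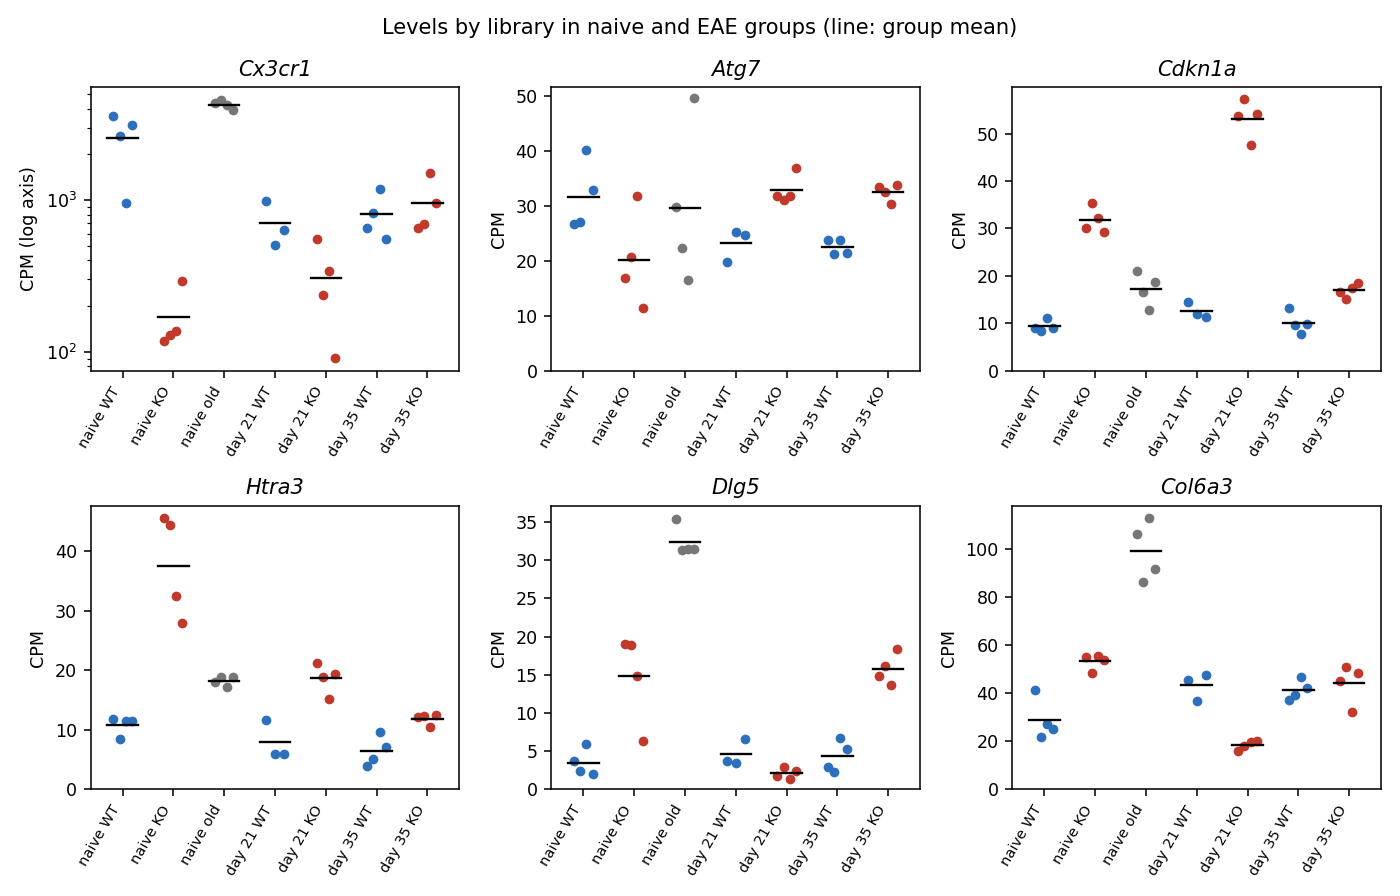
CPM of 6 genes in each library (points) with the group mean (line), in naive WT, KO and old mice and in WT and KO mice at days 21 and 35 of EAE. The axis is logarithmic for Cx3cr1 alone. Cdkn1a and Htra3 are higher in KO than in WT at each time, whereas Dlg5 and Col6a3 are higher in naive KO and lower in KO at day 21.

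Several of the higher genes act in the extracellular matrix. Htra3, a secreted serine protease, had the lowest p of all genes. It was at 45.5, 44.4, 32.4 and 27.9 CPM in KO 1 to 4 and at 11.8, 8.44, 11.5 and 11.5 in WT 1 to 4, and the lowest KO value was well above the highest WT value. The log2FC was 1.79 ± 0.208 (edgeR adjusted p = 2.55e-05), and with KO 1 and KO 3 left out it was 1.76 (adjusted p = 0.0011). Mmp2, a gelatinase that cleaves collagen, was at 49.5, 67.5, 76 and 57.2 CPM in KO against 38.7, 33.8, 30.1 and 38.8 in WT (log2FC 0.82 ± 0.139, edgeR adjusted p = 0.00315). Col6a3, a chain of collagen VI, was at 55.2, 48.4, 55.6 and 54 CPM in KO against 41.5, 21.8, 27.1 and 25.1 in WT (log2FC 0.88 ± 0.153, edgeR adjusted p = 0.00428). Tgm2, a transglutaminase that cross-links proteins, was at 142.6, 154.5, 142.6 and 127.7 CPM in KO against 106.7, 79.5, 70 and 81.4 in WT (log2FC 0.75 ± 0.124, edgeR adjusted p = 0.00284). In each of these 3 the groups were apart, and WT 1 was the WT library nearest to KO for Col6a3 and Tgm2. Crtap, which takes part in the hydroxylation of collagen prolines, was at 35.2, 37.2, 35.3 and 31.5 CPM in KO against 21.9, 17.4, 13.6 and 12 in WT (log2FC 1.10 ± 0.222, edgeR adjusted p = 0.0192). These genes were grouped after their values were seen, and no list of matrix genes was counted.

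A further 3 called genes, also grouped after their values were seen, act on or carry sulfated glycans. Chst1, a sulfotransferase of keratan sulfate, was at 68.6, 90.3, 110 and 70.4 CPM in KO 1 to 4 and 25.4, 31.7, 47.9 and 29.4 in WT 1 to 4 (log2FC 1.34 ± 0.207, edgeR adjusted p = 0.0022). Sdc3, a heparan sulfate proteoglycan of the cell surface, was the most abundant of the higher genes, at 223.1, 296.5, 379.2 and 200.5 CPM in KO against 128.8, 128.1, 147.5 and 122.7 in WT (log2FC 1.06 ± 0.182, edgeR adjusted p = 0.00428). KO 3 was the highest library for both, as it was for 19 of the 33 higher genes. Hs3st3b1, a sulfotransferase of heparan sulfate, was at 17.1 ± 2.30 CPM in KO against 10.2 ± 1.44 in WT (SD, n = 4 each), a log2FC of 0.76 ± 0.156 (edgeR adjusted p = 0.0253). That call was lost without WT 1, KO 2, KO 3 or WT 4.

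Some called genes were low in WT and high in all or most KO libraries. Pianp, which encodes a membrane protein that binds the immune receptor PILRA, was at 26.7, 26.1, 22.6 and 22.6 CPM in KO 1 to 4 and at 0.441, 0.938, 2.84 and 0.143 in WT 1 to 4, from 796 and 27 counts in all. The log2FC was 4.47 ± 0.892 (edgeR adjusted p = 0.0291). Gm13394, an annotated processed pseudogene, was at 8.32, 8.12, 6.95 and 8.21 CPM in KO against 0.441, 0, 0.449 and 0.143 in WT (log2FC 4.73 ± 1.03, edgeR adjusted p = 0.0419). Reads of a processed pseudogene can be shared with its parent gene, so this gene is uncertain. Kcnj12, an inwardly rectifying potassium channel, was at 9, 8.99 and 8.62 CPM in KO 1 to 3 but at 0.88 in KO 4, inside the WT range of 0.428 to 1.05 (log2FC 3.39 ± 0.676, edgeR adjusted p = 0.0188). Ildr2, an immunoglobulin-like receptor, had the same form, with 88.9, 110 and 119 CPM in KO 1 to 3, 21.3 in KO 4, and 15.1, 12, 48.6 and 12.4 in WT 1 to 4 (log2FC 1.93 ± 0.416, edgeR adjusted p = 0.0419). KO 4 was the lowest KO library for 20 of the 33 higher genes. Each of these 4 calls was lost without at least 6 of the 8 libraries in turn.

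Among genes of cell junctions and signalling, Dlg5, a scaffold protein of cell contacts, was at 19, 18.9, 14.9 and 6.31 CPM in KO 1 to 4 and 3.68, 2.35, 5.98 and 2 in WT 1 to 4. KO 4 and WT 3 nearly met, but the groups did not overlap (log2FC 2.06 ± 0.332, edgeR adjusted p = 0.00244). Ajm1, an apical junction protein, was at 59.1 ± 5.13 CPM in KO against 31.6 ± 3.72 in WT (SD, n = 4 each; log2FC 0.90 ± 0.178, edgeR adjusted p = 0.0188), though 91% of its exon bases lie opposite Gm26702. Neurl1b, a ubiquitin ligase of Notch ligands, was at 9.48 ± 2.46 and 4.13 ± 1.27 CPM (SD, n = 4 each; log2FC 1.18 ± 0.235, edgeR adjusted p = 0.0188). Rasgrf2, an exchange factor of Ras, was at 20.1 ± 7.70 and 10.2 ± 2.54 CPM (SD, n = 4 each; log2FC 0.97 ± 0.218, edgeR adjusted p = 0.0419). Hspa12a, a distant member of the heat shock protein family, was at 17, 18.5, 18.5 and 11 CPM in KO against 7.20, 5.86, 9.87 and 8.41 in WT (log2FC 1.04 ± 0.223, edgeR adjusted p = 0.0324). Naalad2, a peptidase of the glutamate carboxypeptidase family, was at 94, 79.7, 87.6 and 41.1 CPM in KO against 36.6, 40.1, 45 and 28.2 in WT, where KO 4 lay below WT 3 (log2FC 1.01 ± 0.195, edgeR adjusted p = 0.0166).

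Transporters and enzymes were among the remaining calls. Spns2, which exports sphingosine phosphate, was at 55.6, 67.3, 76.4 and 60 CPM in KO 1 to 4 and 31.5, 34.7, 32 and 43.3 in WT 1 to 4 (log2FC 0.87 ± 0.146, edgeR adjusted p = 0.00285). Slc12a7, a potassium and chloride cotransporter, had a log2FC of 0.58 ± 0.122 (edgeR adjusted p = 0.0291), and Slc11a2, a transporter of iron and other divalent metals, 0.50 ± 0.111 (edgeR adjusted p = 0.0419). Pla2g16, a phospholipase, was at 10.6, 11 and 10.6 CPM in KO 1 to 3, 5.87 in KO 4 and 4.04 to 6.33 in WT (log2FC 0.90 ± 0.195, edgeR adjusted p = 0.0351). Usp35, a deubiquitinase, was at 114.2 ± 4.79 CPM in KO against 75.5 ± 8.69 in WT (SD, n = 4 each; log2FC 0.59 ± 0.126, edgeR adjusted p = 0.0312). Arl5c, an ARF-like GTPase, rose by a log2FC of 0.66 ± 0.149, the intraflagellar transport gene Ift22 by 0.76 ± 0.165 and the long noncoding RNA AU020206 by 0.77 ± 0.144 (edgeR adjusted p = 0.0419, 0.0354 and 0.0107).

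Immune genes were called in both directions. Il12rb2, a subunit of an interleukin receptor, was at 9.14, 7.15, 11.5 and 5.43 CPM in KO 1 to 4 and 3.68, 3.52, 3.74 and 4.85 in WT 1 to 4 (log2FC 1.06 ± 0.237, edgeR adjusted p = 0.0419), with 40% of its exon bases opposite Serbp1. H2-M3, a nonclassical MHC class I gene, was at 36.7, 47.2, 54.2 and 38 CPM in KO against 23.4, 25.1, 34.8 and 28.8 in WT (log2FC 0.65 ± 0.146, edgeR adjusted p = 0.0419). Gbp3, an interferon-induced GTPase, had a log2FC of 0.58 ± 0.116 (edgeR adjusted p = 0.0188). Cd5, a lymphocyte receptor, was below 5 CPM in every library, with 1.60 ± 0.750 in KO and 0.22 ± 0.255 in WT (SD, n = 4 each; log2FC 2.65 ± 0.589, edgeR adjusted p = 0.0419). Beside it, the T and NK cell markers summed to 8.62 ± 5.21 CPM in KO against 9.42 ± 0.436 in WT, with 1.32 in KO 4, and none of the 10 was at 0 in all 8 libraries. The 7 markers tested had log2FC from -1.48 to 4.99 (median 0.90), 4 positive and 3 negative, and none was called. Their part in the Cd5 result was not tested. Ccl9, a chemokine, fell to 71.7, 62.5, 65.9 and 75.1 CPM in KO from 96.4, 145.4, 119.2 and 116.5 in WT (log2FC -0.79 ± 0.163, edgeR adjusted p = 0.0249).

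Ccr3, the chemokine receptor of eosinophils, was at 0.818, 0.677, 0.515 and 0.147 CPM in KO 1 to 4 and 3.23, 5.39, 3.74 and 4.28 in WT 1 to 4 (log2FC -2.87 ± 0.624, edgeR adjusted p = 0.0354). Beside it, the 6 genes of granulocyte precursors and eosinophils summed to 8.51 to 61.5 CPM in KO against 41.3 to 404 in WT. These sums overlapped between the groups through WT 1. All 6 had a negative log2FC, none was called and none was at 0 in all 8 libraries. The eosinophil granule genes Prg2 and Epx had every KO library at or below every WT library, with log2FC of -3.14 ± 0.801 and -3.12 ± 0.808 (edgeR adjusted p = 0.144 and 0.167). Their part in the Ccr3 result was not tested beyond the neutrophil covariate, with which Ccr3 had a log2FC of -2.43 (adjusted p = 0.113). Adgrl2, an adhesion receptor of the latrophilin family, fell to 22.6, 31.3, 29 and 46.6 CPM in KO from 68.1, 62.9, 55.9 and 61.4 in WT (log2FC -0.94 ± 0.169, edgeR adjusted p = 0.00612), and this call was lost without KO 3. Mid1, a ubiquitin ligase gene on the X chromosome, was at 3.13 ± 0.590 CPM in KO against 7.59 ± 0.926 in WT (SD, n = 4 each; log2FC -1.28 ± 0.270, edgeR adjusted p = 0.0291). Gm25414, an snRNA, was at 22.8 CPM in WT 2, 2 to 4.64 in the other WT libraries and at most 1.03 in KO (log2FC -3.42 ± 0.768, edgeR adjusted p = 0.0419). Its call was lost without WT 2, without KO 1, KO 2, KO 3 or KO 4, and in 8 further alternatives. Pecam1 and Kdr, markers of endothelium, had every KO library below every WT library (log2FC -0.57 ± 0.140 and -0.38 ± 0.144) without being called (edgeR adjusted p = 0.0879 and 0.441). Of the 4 endothelial markers tested, the other 2 had a positive log2FC, at most 0.26, and the median of the 4 was -0.15.

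Genes of the autophagy pathway showed little difference. Of 16 genes of LC3 and Atg12 conjugation, 18 of autophagy initiation and 14 autophagy receptors, none was called. In the first list 13 of 16 had a negative log2FC, with a median of -0.08, and the medians of the other lists were 0.01 and -0.02, against -0.02 for all genes. Atg3, the E2-like enzyme that hands LC3 to lipid, was at 63.5, 60.2, 48.4 and 48.5 CPM in KO 1 to 4 and 58.7, 94.3, 87.2 and 68.7 in WT 1 to 4, where the groups overlapped (log2FC -0.48 ± 0.187, edgeR adjusted p = 0.451). Rb1cc1, the FIP200 scaffold of the initiation complex, had every KO library below every WT library by a small margin (log2FC -0.17 ± 0.103, edgeR adjusted p = 0.639). None of 35 lysosomal genes was called, with 25 positive values and a median of 0.06. With the 12 naive libraries, the i5 index block, DESeq2 or day 35 WT 3 left out, 1 of the 35, the beta-galactosidase gene Glb1, was called lower. Over all genes those settings gave 24, 31, 78 and 41 calls. Npc1, which moves cholesterol out of lysosomes, was at 330, 360, 402 and 352 CPM in KO against 310, 280, 281 and 284 in WT, without overlap (log2FC 0.32 ± 0.120, edgeR adjusted p = 0.435). None of 17 NRF2 antioxidant genes was called (median -0.06). Gsr, glutathione reductase, was at 52.2, 51.9, 44.9 and 17.5 CPM in KO against 42.9, 78.6, 181 and 109 in WT (log2FC -1.30 ± 0.598, edgeR adjusted p = 0.516), and was high in the WT libraries with high neutrophil sums.

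The MHC lists leaned upward with few calls. Of 19 MHC class I genes 17 had a positive log2FC, against 6398 of all 13880 genes, with a median of 0.39 and H2-M3 as the only call. Without WT 3 there were 7 calls in this list, all higher, beside 54 calls among all 13844 genes then tested. H2-K1, a classical class I gene, was at 384.1 to 622.8 CPM in KO and at 273.6, 266.2, 437.9 and 267.7 in WT 1 to 4, where WT 3 lay inside the KO range (log2FC 0.61 ± 0.172, edgeR adjusted p = 0.185). H2-D1 and H2-Q6 had log2FC of 0.62 ± 0.197 and 1.31 ± 0.395 (edgeR adjusted p = 0.274 and 0.251). Of 10 MHC class II genes 9 had a positive log2FC with a median of 0.75, and none was called. Cd74, the invariant chain, was at 359.2, 562.6, 791.3 and 45.3 CPM in KO against 197.9, 152.5, 273.4 and 158.4 in WT, so KO 4 was the lowest of all 8 libraries and the other 3 KO libraries the highest (log2FC 1.17 ± 0.457, edgeR adjusted p = 0.457). H2-Eb1 and Ciita, the class II transactivator, had the same pattern, with 11.7 and 1.17 CPM in KO 4. Without KO 4 there were 4 class II calls, all higher, beside 69 calls among all 13861 genes then tested.

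Other lists gave no calls beyond those named. Of 32 interferon response genes none was called, with a median log2FC of 0.06. Without WT 3 1 was called higher, beside 54 calls among all 13844 genes then tested, and the median was 0.30. Of 23 cytokine and chemokine genes Ccl9 was the only call. In the alternatives at most 2 of this list were called higher and at most 1 lower. Cxcl13, a B cell chemokine, was at 2.05, 11.6, 21 and 2.20 CPM in KO 1 to 4 and 0.294, 0.235, 2.54 and 0 in WT 1 to 4 (log2FC 3.51 ± 0.822, edgeR adjusted p = 0.0842), and Ccl12 had a log2FC of 0.82 ± 0.218 (edgeR adjusted p = 0.166). None of 26 disease-associated microglial genes was called (median 0.09), and 1 was called higher without WT 3. Itgax, the CD11c integrin, was at 34, 56.9, 88.8 and 21 CPM in KO against 17.5, 22.8, 42.9 and 18.4 in WT (log2FC 0.98 ± 0.337, edgeR adjusted p = 0.364), and Axl, a receptor kinase for dying cells, had a log2FC of 0.87 ± 0.369 (edgeR adjusted p = 0.484). None of 24 immediate-early genes was called, 20 of them negative with a median of -0.22 that ran from -0.51 without KO 4 to 0.01 without WT 1. Nor was any of 20 genes of the integrated stress and unfolded protein responses (median -0.12). Atf3, which is in both lists, had a log2FC of -0.79 ± 0.344 (edgeR adjusted p = 0.494) and Atf4, the central factor of the integrated stress response, -0.23 ± 0.0895 (edgeR adjusted p = 0.445). None was called of 29 nuclear genes of oxidative phosphorylation (median -0.09), 8 mitochondrially encoded genes (median 0.21, from -0.05 without KO 4 to 0.55 without WT 3), 24 genes of lipid and cholesterol handling (median 0.06) or 27 of phagocytic receptors, complement and NADPH oxidase (median 0.01). Acsl1, an acyl-CoA synthetase, had every KO library below every WT library (log2FC -0.60 ± 0.232, edgeR adjusted p = 0.445).

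The calls were denser near Cx3cr1 on chromosome 9. Within 10 Mb of it 5 of 111 other tested genes were called (4.5%), 3 higher (Crtap, Tmppe and Ptpn23) and 2 lower (Ccr3 among them), against 34 of 13768 tested genes elsewhere (0.247%). With the neutrophil covariate the calls of Crtap, Tmppe, Ptpn23 and Ccr3 were lost (adjusted p = 0.0607, 0.0681, 0.0735 and 0.113), while the window held 4 calls. In the same window the groups did not overlap for 14 genes (12.6%), 7 in each direction, against 781 elsewhere (5.67%), and the median log2FC of the 111 was -0.01. Within 5 Mb 1 of 71 was called, and within 20 Mb 5 of 240. In the KO against WT comparisons at day 21 and day 35 the calls in the 10 Mb window were 21 (18.9%) and 4 (3.6%), beside 19% and 2.62% over all genes. The window's count fell to 1 without KO 2, WT 2, KO 3 or WT 4, to 2 without KO 1, and to 0 with KO 1 and KO 3 left out. Around Atg7 on chromosome 6 no tested gene within 10 Mb was called, and within 20 Mb Pianp, 10.14 Mb away, was the only one of 220.

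A pair of overlapping genes in this window had log2FC of opposite sign. Tmppe, a predicted metallophosphoesterase, was at 55.6, 62.1, 64.8 and 57.3 CPM in KO against 42.2, 34.7, 41.4 and 37.5 in WT (log2FC 0.62 ± 0.120, edgeR adjusted p = 0.0166). Glb1, the lysosomal beta-galactosidase, shares 165 exon bases with Tmppe on the same strand and was at 21.1, 25.8, 27.7 and 22 CPM in KO against 35.9, 36.4, 44.1 and 44.3 in WT, also without overlap but lower (log2FC -0.73 ± 0.180, edgeR adjusted p = 0.0924). Reads in the shared exon can be given to either gene. Crtap lies next to Tmppe, 5.51 Mb from Cx3cr1, and was higher, with the values given among the matrix genes. Ptpn23, a phosphatase-like protein of endosomal sorting, was at 109.8 ± 13.6 CPM in KO against 73.3 ± 15.9 in WT without overlap (SD, n = 4 each; log2FC 0.58 ± 0.129, edgeR adjusted p = 0.0419).

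**Figure D4:**
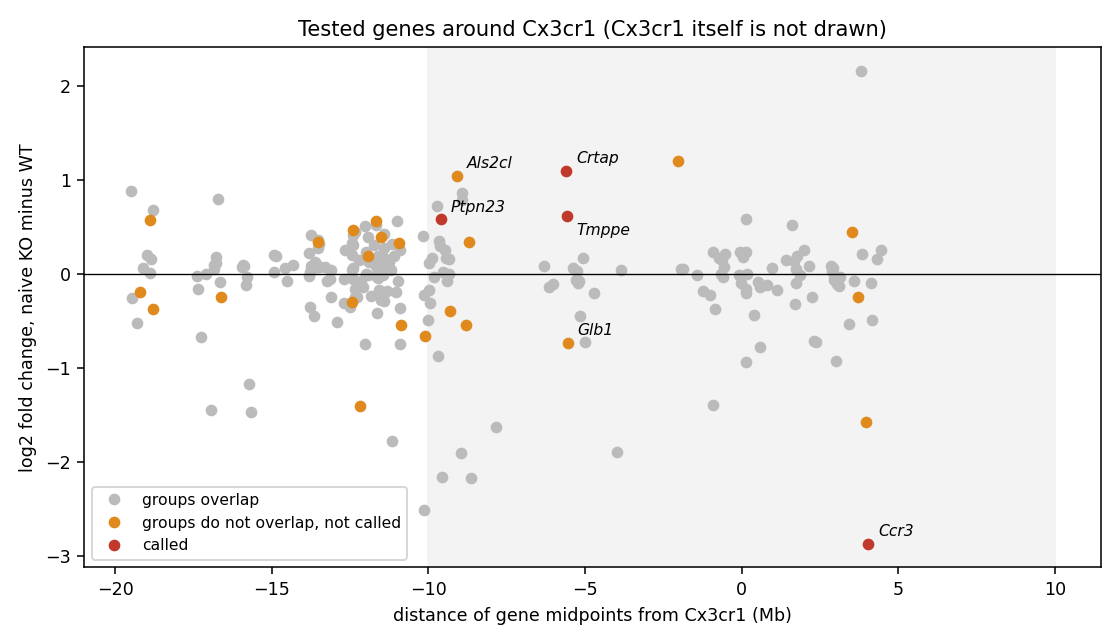
Log2FC of naive KO minus naive WT for 239 of the 240 tested genes within 20 Mb of Cx3cr1, by the distance of the gene midpoints in Mb, with the 10 Mb window shaded. Red marks 4 of the 5 called genes, orange the genes whose groups do not overlap but which were not called, and grey the rest. Tmppe and Glb1, next to each other, lie on opposite sides of 0.

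The EAE libraries, which share none with the naive comparison, gave the same genes a second measurement. At day 21, where 2642 genes were called (19%; 9.18% higher and 9.86% lower in KO), 12 of the 33 genes higher in naive KO were called higher and 7 lower, and 18 had a positive log2FC. Of the 7 lower in naive KO 1 was called lower and 6 had a negative value. At day 35, where 363 were called (2.62%; 1.79% higher and 0.829% lower), 2 of the 33 were called higher and none lower, 23 were positive, and none of the 7 was called. Htra3 was called higher on both days, at 18.6 ± 2.52 CPM in KO against 7.90 ± 3.31 in WT at day 21 (SD, n = 4 and 3; log2FC 1.26 ± 0.234, edgeR adjusted p = 0.000418) and 11.9 ± 0.968 against 6.41 ± 2.45 at day 35 (SD, n = 4 each; log2FC 0.89 ± 0.219, edgeR adjusted p = 0.0318). Cdkn1a was at 53.7, 57.3, 47.6 and 54.1 CPM in the day 21 KO libraries and 14.4, 11.9 and 11.3 in WT (log2FC 2.09 ± 0.264, edgeR adjusted p = 6.08e-06), and at day 35 at 17 ± 1.47 against 10.2 ± 2.33 (SD, n = 4 each; log2FC 0.74 ± 0.243, edgeR adjusted p = 0.0964). Tgm2 (log2FC 1.2 ± 0.136), Gbp3 (1.15 ± 0.122) and Sdc3 (0.83 ± 0.197) were also called higher at day 21, as were Ift22, Slc12a7, Pla2g16, Hs3st3b1, Tmppe, Gm13394 and AU020206, and Adgrl2 was called lower again (log2FC -0.96 ± 0.181, edgeR adjusted p = 0.000486).

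The 7 genes that were higher in naive KO and called lower in KO at day 21 were Il12rb2, Dlg5, Hspa12a, Ajm1, Usp35, Naalad2 and Col6a3. Col6a3 was at 15.9, 18, 19.7 and 20.3 CPM in the day 21 KO libraries and 45.6, 36.8 and 47.7 in WT, which did not overlap (log2FC -1.23 ± 0.167, edgeR adjusted p = 1.18e-05), and at day 35 at 44.1 ± 8.38 and 41.4 ± 4.18 (SD, n = 4 each). Hspa12a had the most negative log2FC of the 7 at day 21, -1.48 ± 0.255 (edgeR adjusted p = 0.000182). Dlg5 changed sign both times: it was lower in KO at day 21, at 2.10 ± 0.713 CPM against 4.61 ± 1.76 (SD, n = 4 and 3; log2FC -1.17 ± 0.394, edgeR adjusted p = 0.036), and higher at day 35, at 15.8 ± 2.02 against 4.30 ± 2.09 (SD, n = 4 each; log2FC 1.87 ± 0.323, edgeR adjusted p = 0.00286). The difference of the KO effect between naive mice and day 21 was itself called for 21 of the 40 (9.68% of all genes), and that between naive mice and day 35 for 8 (0.367% of all genes). These counts use the naive libraries that chose the 40 genes, so they are given as a description. The largest differences called were those of Kcnj12 (6 on the log2 scale) and Dlg5 (3.23) for day 21 and of Gm13394 (7.33) for day 35. Those of Kcnj12 and Gm13394 rest on values near 0. Kcnj12 had means of 0.178 CPM in KO and 1.09 in WT at day 21, and Gm13394 0.166 and 1.13 at day 35. The difference of Cx3cr1 was -2.72 for day 21 and -4.17 for day 35.

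**Figure D5:**
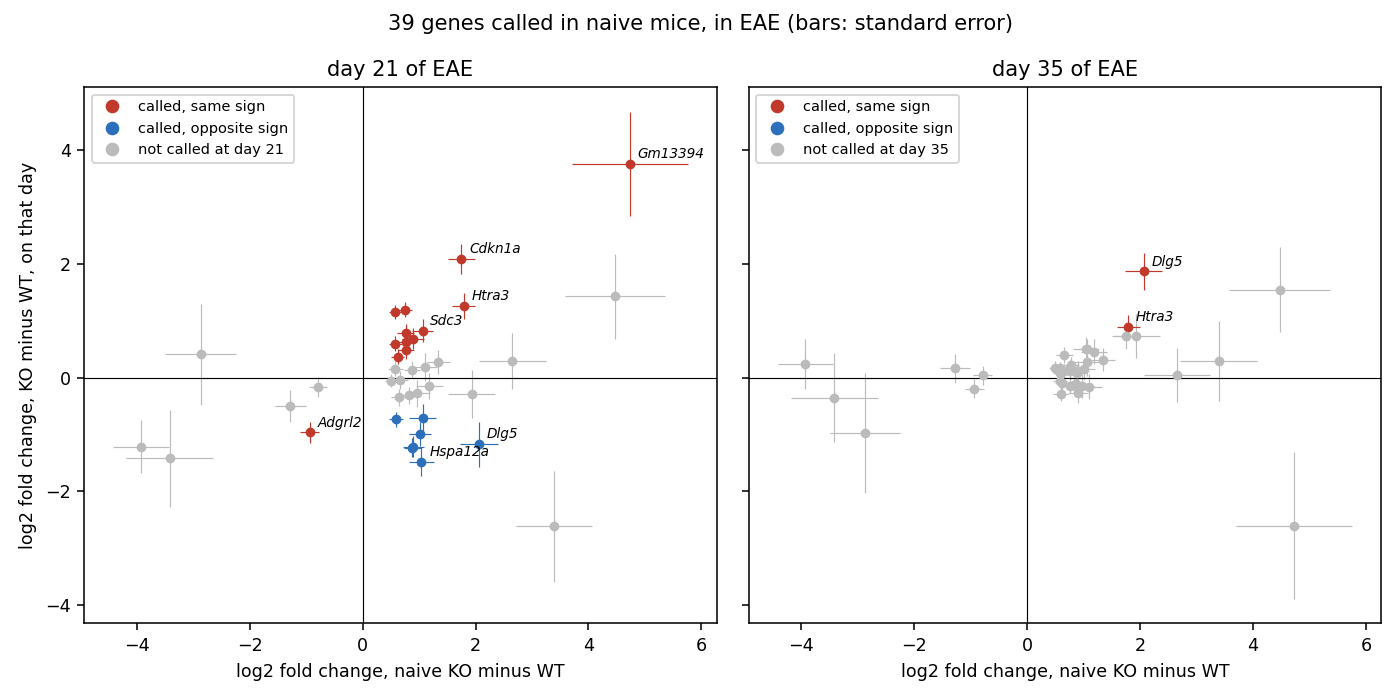
Log2FC of KO minus WT in naive mice (horizontal) and at day 21 (left) or day 35 (right) of EAE (vertical) for 39 of the 40 called genes, with standard errors as bars. Red genes were called with the same sign on that day (13 at day 21, 2 at day 35), blue genes with the opposite sign (7 and 0), and grey genes were not called. A cluster of blue genes with Dlg5 and Hspa12a lies below 0 at day 21 only.

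Naive old mice are a reference for levels only, since a comparison of old with WT would share the WT libraries. The KO and WT libraries also chose the 33 higher genes. The counts below were not made over all genes, so they are given as a description only. For 22 of the 33 higher genes all 4 old libraries lay above all 4 WT libraries. For 4 of them, Dlg5, Arl5c, Naalad2 and Col6a3, the old libraries were above the KO libraries too: Dlg5 was at 31.3 to 35.4 CPM and Col6a3 at 86.1 to 113 in old mice. For 8, Slc12a7, Cdkn1a, Htra3, Ajm1, Crtap, Usp35, Spns2 and Tmppe, every old library was below every KO library. Htra3 was at 17.1 to 18.9 and Cdkn1a at 12.8 to 21.1 CPM in old mice, between the WT and KO ranges for both. Pianp ranged from 17.3 to 122.2 CPM in old mice, so it was well above WT there as well, with a wide spread.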

How the data were processed

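RNA of 30 libraries of sorted microglia was sequenced with a stranded total RNA kit, per the labels' protocols. The authors deposited raw read counts per Ensembl gene for 46078 genes, made with CASAVA, bcl2fastq and STAR on GRCm38, per the submitters' processing notes. How reads were counted, with which strand setting and annotation, is not given in the sources used here, so reads of overlapping genes may be split or shared. RNA integrity numbers are scores that the authors deposited in a sample table. Count columns were joined to samples by plate well, an inference for which 30 of 30 titles met a column of their group, and 2 of 32 columns were not used. Columns whose names are plain numbers were entered as other units and checked to hold whole counts.

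Genes passing filterByExpr (minimum count 10, minimum total 15; 13880 genes) were scaled by TMM and fitted with edgeR 4.0.16 in R 4.3.3 (robust quasi-likelihood, 8 group means over 30 libraries, 22 residual degrees of freedom), with Benjamini-Hochberg adjustment per contrast. The pipeline was tested on simulated data. The library labelled WT by title but KO by status (day 35 WT 3) was kept as WT. Symbols and coordinates are from GENCODE M21, and promoters from RefSeq. Named genes were Atg7, Cx3cr1, up to 15 called genes each way by log2FC (at least 5 CPM in the higher group, no overlap, no predicted name), up to 3 members per list, and called genes within 20 Mb of both loci. Other called genes are named outside this rule, after their values were seen. Members, lists and this rule were chosen with earlier results of these data known. Alternatives included DESeq2 1.42.0, other scalings and filters, covariates and left-out libraries. Results of some genes are not reported here, and the figures leave them out.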

Additional observations from a re-analysis of the deposited data

Results flagged for a closer look

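Over 57 gene and quality measures, each examined in both genotypes, 13 groups had 1 library far from the other 3 (gap over range above 0.829), which chance gives in about 1 of 20 groups. In KO 4 these were the neutrophil sum (640 CPM against 2878 to 3147; 0.893), the neuron sum (30.2 against 9.01 to 11.6; 0.878), Kcnj12 (0.953), Pla2g16 (0.909) and Cx3cr1 (0.893), and in KO 3 Gm13394 (0.856). In WT 2 they were the total count (0.852), the neuron sum (0.833), Htra3 (0.926) and Gm25414 (0.873), in WT 3 the B and plasma cell sum (0.851) and Ildr2 (0.913), and in WT 4 Il12rb2 (0.834).

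The KO minus WT difference (log2) was greater in naive mice than at day 21 for Kcnj12 (6.00), Dlg5 (3.23), Hspa12a (2.53), Cd5 (2.37), Ildr2 (2.20), Ajm1 (2.11), Col6a3 (2.11), Naalad2 (2.01), Il12rb2 (1.77), Neurl1b (1.33), Usp35 (1.32), Rasgrf2 (1.25), Mmp2 (1.14), Chst1 (1.05), H2-M3 (0.99), Spns2 (0.73), Arl5c (0.71) and Slc11a2 (0.56), and lower for Cx3cr1 (-2.72) and Gbp3 (-0.57), by the interaction term of the edgeR fit. Against day 35 it was greater for Gm13394 (7.33), Ajm1 (1.16), Spns2 (0.98), Mmp2 (0.95), Tgm2 (0.90) and Usp35 (0.88), and lower for Cx3cr1 (-4.17). Greater and lower refer to the signed value, which for Cx3cr1 was -3.93 in naive mice, -1.21 at day 21 and 0.24 at day 35. Kcnj12 at day 21 and Gm13394 at day 35 were near 0 CPM in KO (means of 0.178 and 0.166), so the size of their differences is uncertain. Only genes called in naive mice were examined, and the interaction term reuses the naive libraries that chose them. The differences are therefore a description.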

How the results depend on the processing

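The 40 calls (33 higher, 7 lower) became 18 (13 higher) with the 8 libraries alone, 13 of them among the 40. With the 12 naive libraries there were 24 (17 higher), 17 of them among the 40. Both fits hold fewer samples. In the fit to the 8 libraries Kcnj12 and Cd5 were not tested. There the edgeR adjusted p was 0.319 for Naalad2 and Rasgrf2, 0.236 for Il12rb2 and 0.224 for H2-M3. DESeq2 gave 78 calls (58 higher, 20 lower), with all 40 among them. With the neutrophil covariate 12 genes were lower. With KO 1 and KO 3 both left out, chosen after seeing the data, 2 higher and 0 lower genes were called. With each library left out in turn the count ran from 11 (without KO 3) to 69 (without KO 4), with 9 to 57 higher and 2 to 14 lower. The calls within 10 Mb of Cx3cr1 ran from 1 to 5 in the same way, were 6 with no filter or without day 35 WT 3 and 7 with DESeq2, were 0 without KO 1 and KO 3, and 1 within 5 Mb. Those near Atg7 went from 0 to 1 at 20 Mb. With the neutrophil covariate, log2FC changed sign for Gsr (0.09), Rrm2 (0.02) and S100a8 (0.10), none of them called. The block of i5 index, a library barcode that the naive groups share by number, gave 31 calls (25 higher), 30 of them among the 40. Each index holds 1 naive KO and 1 naive WT library, so this block pairs them by barcode; the labels number no replicates and tie no index to an animal, litter or sort. Depth limits the genes named below 5 CPM, Cd5 (51 and 6 counts in all in KO and WT) and Ccr3 (18 and 100). The cause of these changes was not tested.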
